A study of Mus musculus with 3 samples.

Results

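The cytosolic ribosomal protein genes were taken from the array annotation as the non-control probes named Rpl or Rps followed by a number, with an optional a, x or l, together with Rplp0, Rplp1, Rplp2, Rpsa and Fau. Pseudogene names were left out. The choice uses gene names and no measured value. It gave 85 of the 24812 genes that could be named, 51 of the large and 34 of the small ribosomal subunit, on 184 probes and 769 spots. Rack1 falls outside this name rule and is given separately.

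The cells were CLDE, a line established from the cervical loop of the mouse tooth, the growth zone of the dental epithelium, and RNA was taken 72 h after transfection. The 3 groups were a mock transfection, siNeg (non-targeting control siRNAs) and siKrt15 (siRNA duplexes that target keratin 15), each on 1 array, so no spread between cultures could be measured and no test was run. For siNeg and siKrt15 the titles and the treatment fields name opposite siRNAs, and the groups follow the titles here. The probe for Krt15, a keratin of basal epithelial cells, read a processed signal of 2638 in mock, 1647 in siNeg and 267 in siKrt15, a difference of −2.88 (log2) against siNeg, which goes with the titles. All 3 groups share the cell line and the time, and the labels do not say how many cultures each RNA sample came from. The basal keratins Krt5 and Krt14 were well above background on every array, Shh, Lum, Cdh5 and Hbb-b1 on none. Other markers of mesenchyme (Dcn, Twist1) and of blood and endothelium (Cd68, Cd3e, Pecam1) were well above background on every array.

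Ribosomal proteins assemble with ribosomal RNA in the nucleolus into a large subunit, which joins amino acids, and a small subunit, which reads the mRNA. Their mRNAs are among the most abundant of a growing cell and are needed in nearly equal numbers, and most begin at a C followed by a run of pyrimidines. This 5′ terminal oligopyrimidine tract lets the kinase complex mTORC1, through the RNA-binding protein Larp1, set how many of the mRNAs are translated. Proliferating epithelium, including the transit-amplifying cells of the incisor, has a high demand for new ribosomes.

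The mRNA starts of a few of these genes show the shared tract and the genes that lack it at the annotated start. The 5 first lines are genes with a run of pyrimidines (Rps6 as a marker of the family, the others for their long runs) and the 3 last are Rps3a1, the member with the lowest value against siNeg, and Rpl7l1 and Rps27l, the 2 with the highest values against both controls. Each line holds 30 bases of the transcript strand, 15 before and 15 from the annotated start, from RefSeq on GRCm38.p6, and capitals mark a run of at least 5 C or T bases that begins with C within 5 bases of the start.
Rps6: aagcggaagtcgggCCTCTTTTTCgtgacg
Rpl27a: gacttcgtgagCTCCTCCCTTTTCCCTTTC
Rpl15: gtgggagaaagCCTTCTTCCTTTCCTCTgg
Fau: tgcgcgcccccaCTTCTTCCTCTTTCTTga
Rpl35: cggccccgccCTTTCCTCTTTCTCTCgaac
Rps3a1: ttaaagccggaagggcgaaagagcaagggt
Rpl7l1: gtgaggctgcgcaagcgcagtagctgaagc
Rps27l: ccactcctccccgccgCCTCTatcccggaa

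These lie at chr4:86857353-86857382 (minus strand) for Rps6, chr7:109519180-109519209 (plus) for Rpl27a, chr14:18270972-18271001 (minus) for Rpl15, chr19:6057932-6057961 (plus) for Fau, chr2:39005117-39005146 (minus) for Rpl35, chr3:86142654-86142683 (minus) for Rps3a1, chr17:46782642-46782671 (minus) for Rpl7l1 and chr9:66946071-66946100 (plus) for the first of 2 annotated starts of Rps27l. Of the 64 members with such a window, 30 (46.9%) held a run of at least 5 bases, against 21.2% of the 27025 genes in the table. A run of at least 7 was found in 24 members (37.5%), against 7.64% of all genes. The motif CCGGAAG, searched on both strands in the 250 bases before the start, was found in 19 members (29.7%), against 7.83% of all genes. These are matches of letters near an annotated start, which can lie some bases away from the start used in CLDE cells.

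Of the 85 genes, 83 were measured on all 3 arrays, that is, well above background and not saturated on at least 1 probe. The exceptions were Rpl3l, a paralog of Rpl3 known from heart and skeletal muscle, and Rpl39l, a paralog of Rpl39 known from testis, each with 1 probe that was not well above background on any array. Values are log2 processed signals minus the 75th percentile of their own array, so a difference between arrays is relative to that point of the signal distribution. The array error model of the scanner software gave a median SD of 0.204 for the log2 difference of a single probe of a member. This SD was not reduced for members averaged over several probes, and its lowest value over members was also 0.204. Probes spotted 10 times had a median SD between spots of 0.04, 0.04 and 0.05 on the mock, siNeg and siKrt15 arrays. Both errors describe a hybridisation and not the difference between cultures.

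Ribosomal protein transcripts were lower on the siKrt15 array than on either control array, by a similar amount in nearly every gene. Against siNeg the median of the 83 members was −0.40, or 0.756 of the siNeg level, with an SD over members of 0.16, and 82 of them lay below 0. Over the 17121 genes measured in this comparison the median was −0.08, the SD was 0.42 and 60.6% lay below 0. Dim genes widen that SD: among the brightest 5% of genes it was 0.13 for members and 0.23 for the others. Against mock the member median was −0.42, or 0.750 of the mock level, with an SD of 0.19 and 81 of 83 members below 0, against a median of −0.06 and 58.1% below 0 over 17130 genes. Between siNeg and mock the member median was −0.01 with an SD of 0.10, and 46 of 83 lay below 0, against 0.02 and 44.5% over 17416 genes. The comparisons share arrays, so they are not independent of each other.

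The shift was spread over the family, and few single members passed a threshold. At a threshold of 1.5-fold, 8 members were lower in siKrt15 than in siNeg and 0 were higher, where 8.63% and 4.8% of all genes were. Against mock 9 members were lower and 0 higher, where 7.69% and 5.83% of all genes were. These shares of the members that were lower are near the background and are no result about the family. At 2-fold 0 members were lower against siNeg (2% of all genes) and 1 against mock (1.24%). Between siNeg and mock 0 members passed 1.5-fold in either direction, where 0.856% of all genes were lower and 2.42% higher (0.0459% and 0.356% at 2-fold, again with 0 members). The siKrt15 array gave the lowest of the 3 values for 81 of 83 members, where it did so for 51% of the 16912 genes measured on all 3 arrays, and the highest for 1 member, where it did so for 32.7%.

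**Figure D1:**
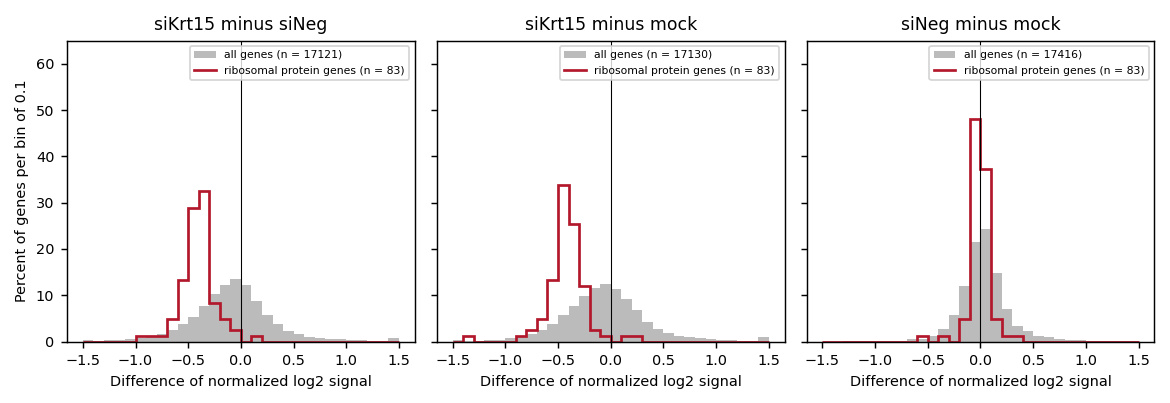
Share of genes (percent per bin of 0.1) against the difference of normalized log2 signal, for all genes (grey) and the 83 ribosomal protein genes (red line), in each pair of arrays; differences beyond 1.5 are drawn in the outermost bins. The member distribution is narrow and centred on −0.40 against siNeg and −0.42 against mock, and on −0.01 between siNeg and mock.

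The 2 markers of the family show the difference, and both lay below the member median against siNeg, Rps6 by 0.23 and Rpl4 by 0.08. Rps6, the small subunit protein phosphorylated by the S6 kinases, read processed signals of 27513 in mock, 26687 in siNeg and 20604 in siKrt15, averaged over its 2 probes. The siKrt15 value was below both control values, which lay close together. The normalized difference was −0.63 against siNeg and −0.59 against mock, and 0.04 between the controls. Rpl4, which lines the tunnel through which the new protein leaves the large subunit, read 79892 in mock, 76225 in siNeg and 65329 in siKrt15. Its difference was −0.48 against siNeg, −0.47 against mock and 0.02 between the controls.

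Large and small subunit genes were lower by nearly the same amount. Against siNeg the median was −0.42 over 49 large subunit genes and −0.39 over 34 small subunit genes, a difference between the medians of −0.02. Against mock the medians were −0.42 and −0.41, a difference of −0.0025, and between siNeg and mock −0.01 and 0.01. The spread over genes against siNeg was 0.14 (SD) for the large and 0.18 for the small subunit. The siKrt15 array was the lowest of the 3 for 48 of 49 large and 33 of 34 small subunit genes.

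**Figure D2:**
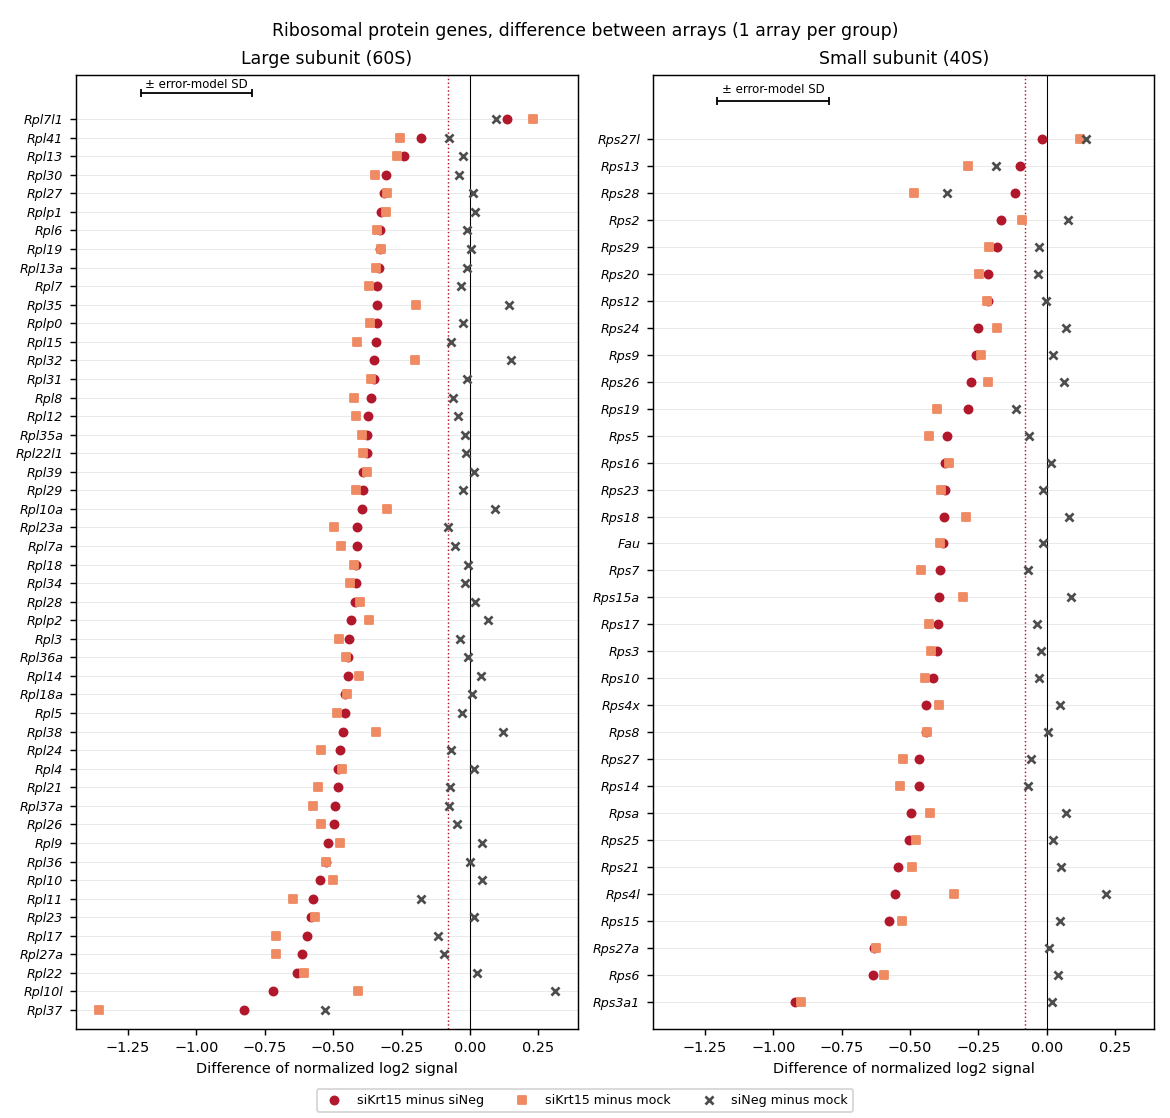
Difference of normalized log2 signal for 82 of the 83 measured genes, by subunit and ordered by siKrt15 minus siNeg (circles), with siKrt15 minus mock (squares) and siNeg minus mock (crosses); the dotted line is the median of all genes in siKrt15 minus siNeg and the bar shows the median error-model SD of 0.204. Circles and squares lie left of the crosses in nearly every row of both subunits.

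The lowest bright gene was Rps3a1, which encodes a protein of the small subunit's platform. It read 37988 in mock, 36340 in siNeg and 23018 in siKrt15. The controls were alike and siKrt15 was lower by 0.92 against siNeg (1.89-fold) and by 0.90 against mock. Its 4 probes, which lie at chr3:85941875-85943100 in mm9, were all lower, from −0.81 to −1.05 against siNeg. The probe spotted 10 times read 22621, 20377 and 11779 in mock, siNeg and siKrt15, and had the largest of the 4 differences. The gene stood 0.52 below the member median against siNeg, beyond the error-model SD of 0.204.

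Besides Rps3a1 and Rps6, the members at least 1.5-fold lower against siNeg were Rpl22 (−0.63), an RNA-binding protein of the large subunit, Rpl27a (−0.61), Rpl17 (−0.59), a protein at the exit of the tunnel, Rps27a (−0.63), and the dim genes Rpl37 (−0.82) and Rpl10l (−0.72). Rpl22 read 23372 in mock, 22461 in siNeg and 17344 in siKrt15, and Rpl27a read 42205, 37333 and 29216. In both, siKrt15 was the lowest array, and Rpl27a was also slightly lower in siNeg than in mock, by 0.09. The 3 probes of Rpl17, each spotted 10 times, gave −0.58, −0.59 and −0.61 against siNeg and between −0.69 and −0.73 against mock. Against mock Rpl11 (−0.65) also passed 1.5-fold.

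Rpl37 and Rpl10l were measured near background and carry larger errors. Rpl37, a zinc-binding protein of the large subunit, read 15.3 in mock, 10.01 in siNeg and 6.77 in siKrt15 on its only probe, with an error-model SD of 0.33. It was lowest in siKrt15 and also lower in siNeg than in mock, by 0.53, and at −1.36 it was the member that passed 2-fold against mock. Rpl10l, a paralog of Rpl10 known from testis, read 5.62, 6.57 and 4.79 on its only probe, with an error-model SD of 0.40.

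The stalk genes lay near the family's median. The acidic P proteins Rplp0, Rplp1 and Rplp2 form the stalk of the large subunit that recruits and activates elongation factors. Rplp0 read 96466 in mock, 89553 in siNeg and 84716 in siKrt15, a difference of −0.34 against siNeg and −0.36 against mock. Rplp1 was at −0.33 and −0.31, and Rplp2 at −0.44 and −0.37. None passed 1.5-fold, and the differences between them are within the error-model SD.

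Rpl5 and Rpl11 bind the 5S rRNA, and the free particle binds Mdm2, the ubiquitin ligase of p53. Rpl5 read 47383 in mock, 43859 in siNeg and 38290 in siKrt15, a difference of −0.46 against siNeg and −0.48 against mock. Rpl11 was at −0.57 and −0.65, with siNeg 0.18 below mock. Its difference between siNeg and mock averages a bright probe (−0.07) and a dim one (−0.29) that was not well above background in siKrt15, where only the bright probe was used.

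Rps27a and Fau encode a small subunit protein fused to ubiquitin and to a ubiquitin-like protein, which is cut off after translation. Fau read 116818 in mock, 109341 in siNeg and 100731 in siKrt15, a difference of −0.38 against siNeg and −0.39 against mock. Rps27a averaged −0.63 and −0.62, but its 2 probes differed. The bright probe read 123343, 121930 and 116546 and gave −0.33 against siNeg, while the dim probe read 11.8, 10.8 and 6.74 and gave −0.94. On the bright probe alone Rps27a does not pass 1.5-fold. Rack1, a scaffold on the head of the small subunit, was at −0.38 against siNeg and −0.40 against mock.

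The groups by place in the ribosome had similar medians. The 9 genes of the polypeptide tunnel and its exit had a median of −0.41 against siNeg and −0.47 against mock, with 2 of them 1.5-fold lower in each comparison, where 8.63% and 7.69% of all genes were. The 6 genes of the mRNA channel and decoding site had medians of −0.38 and −0.39, with 0 at 1.5-fold. The 17 genes whose human counterparts are mutated in Diamond-Blackfan anaemia, a failure of red cell formation, had medians of −0.38 and −0.42, with 0 and 1 at 1.5-fold lower. With lists this short, these counts are not set apart from the shares over all genes. All members of these 3 lists were below 0 against both controls, as were 82 and 81 of all 83.

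The paralogs differed among themselves, with 2 near or above 0 and 3 below it against siNeg. Over the 5 measured the median was −0.38 against siNeg. Rpl7l1, a paralog of Rpl7, was the only member above 0 against siNeg. It read 205 in mock, 207 in siNeg and 273 in siKrt15, and was highest in siKrt15, by 0.14 against siNeg and 0.23 against mock. Its partner Rpl7 was at −0.34 and −0.37. Rps27l, a paralog of Rps27 that p53 is known to induce, read 17603, 18329 and 21668 and was at −0.02 against siNeg and 0.12 against mock, with its 2 probes at −0.11 and 0.07 against siNeg. Rps27 was at −0.47 and −0.53 on 2 probes spotted 10 times.

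The other paralogs were lower in siKrt15. Rpl22l1 read 23178 in mock, 21667 in siNeg and 19992 in siKrt15 and was at −0.38 and −0.39, where its partner Rpl22 was at −0.63 and −0.61. Rps4l, read near background at 16.9, 18.5 and 15.1, was at −0.56 and −0.34, and its partner Rps4x at −0.44 and −0.39. Rpl10l was at −0.72 and −0.41, and its partner Rpl10 at −0.55 and −0.50. With the 5 measured paralogs left out, the 78 other members had a median of −0.41 against siNeg and −0.42 against mock, and all 78 were below 0 in both.

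After the paralogs Rpl7l1 and Rps27l, the members nearest to 0 included 3 genes whose probes disagreed. Rps13 (−0.10 against siNeg), Rps28 (−0.12), Rps2 (−0.17), Rpl41 (−0.18), Rps29 (−0.18) and Rps20 (−0.21) were the next highest. Of these, Rps13, Rps28 and Rps29 had probes that differed by at least 1.5-fold against siNeg, as did Rps27a and Rps19. Over the 60 genes with several measured probes the median range between probes was only 0.11.

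Rps28, a protein near the mRNA exit of the small subunit, had 3 probes of similar brightness. The 2 probes spotted 10 times read 69657 and 72430 in mock, 65019 and 66841 in siNeg, and 56411 and 58037 in siKrt15, and gave −0.47 and −0.46 against siNeg. The third, on a single spot next to them, read 76723, 34986 and 62420. It was low on the siNeg array alone, by 1.05 against mock, and so gave 0.57 against siNeg and −0.47 against mock. The value of −0.12 for Rps28 against siNeg therefore rests on that spot, and with the replicated probes alone it was −0.46.

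In Rps13 and Rps29 a dim probe stood against bright ones. The bright probe of Rps13 read 53902, 50428 and 45568 over 10 spots and gave −0.41 against siNeg, and the dim probe read 90.2, 66.3 and 91.7 and gave 0.21. Rps29 had 3 bright probes between −0.32 and −0.44, which the annotation places on chromosome 2 of mm9, and a dim probe on chromosome 12 that read 7.84, 7.60 and 11.7 and gave 0.37. With the brightest probe of each gene, Rps13 was at −0.41, Rps29 at −0.34, Rps20 at −0.40 and Rps19, named for its probes' disagreement, at −0.35. Ribosomal protein genes have many processed copies in the mouse genome, and signal from such copies cannot be told apart here.

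Rps2 differed from these, since its measured probes agreed. The annotation places these probes at chr17:24857583-24857642 and chr17:42864841-42864900 in mm9, so signal from a copy cannot be told apart here either. The protein sits at the entrance of the mRNA channel. Its bright probes gave −0.19 (10 spots) and −0.15 against siNeg and −0.11 and −0.07 against mock, and the gene read 55079 in mock, 54804 in siNeg and 58413 in siKrt15. It was among the members least lowered in both comparisons.

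**Figure D3:**
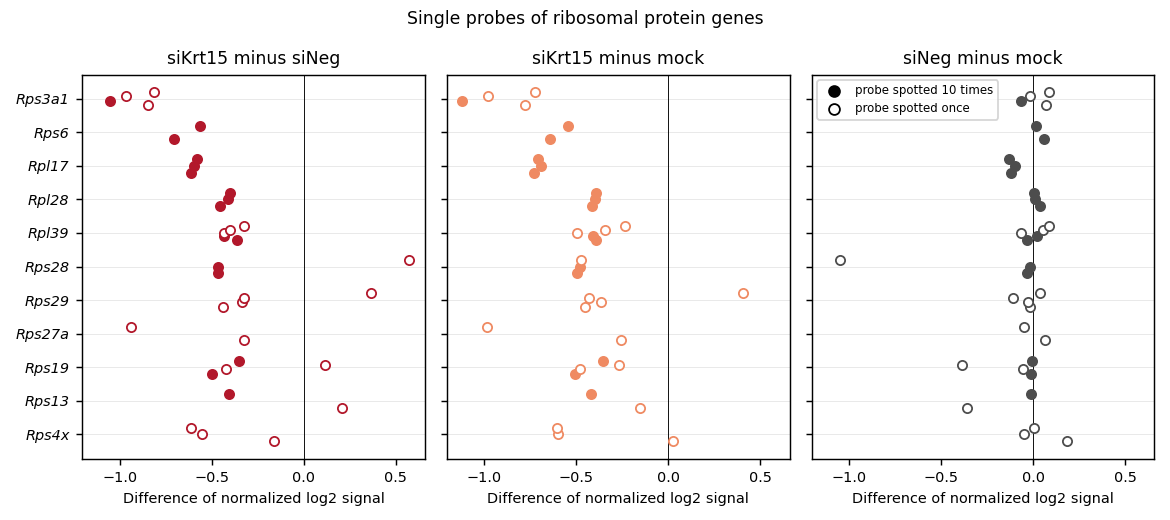
Difference of normalized log2 signal of single probes (filled, spotted 10 times; open, spotted once) for 11 genes chosen for their probes or their position in the family. Rps3a1, Rpl17 and Rpl28 show probes that agree, and Rps28 shows 1 single-spot probe at 0.57 against siNeg and −1.05 between siNeg and mock, with the others near −0.47 and −0.03.

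The probes spotted 10 times gave the most precise view. They cover 48 members, all 48 of which were lower in siKrt15 against both controls. Their median was −0.42 against siNeg, with an SD of 0.13, and −0.43 against mock. Between siNeg and mock it was −0.01 with an SD of 0.05. The SD between single spots was of similar size (median 0.04 in mock and in siNeg). A mean over 10 spots has a smaller error than 1 spot, so the 2 are not alike. Other genes spotted 10 times had medians of −0.23 over 68 genes against siNeg, −0.19 over 67 against mock and 0.04 between the controls. Of these other genes, 52 of 68 lay below 0 against siNeg and 47 of 67 against mock. This restriction was added after the data were seen.

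Most members are bright, and bright genes as a whole were somewhat lower in siKrt15. Of the 857 brightest 5% of genes in the comparison with siNeg, 73 were members, with a median of −0.40, and the other 784 had a median of −0.12. Against mock the bright members stood at −0.42 and the other bright genes at −0.08, and between siNeg and mock at −0.01 and 0.05. Over the 3 arrays the median SD of a member was 0.24, against 0.11 for the bright genes that were no members and 0.16 for all genes.

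**Figure D4:**
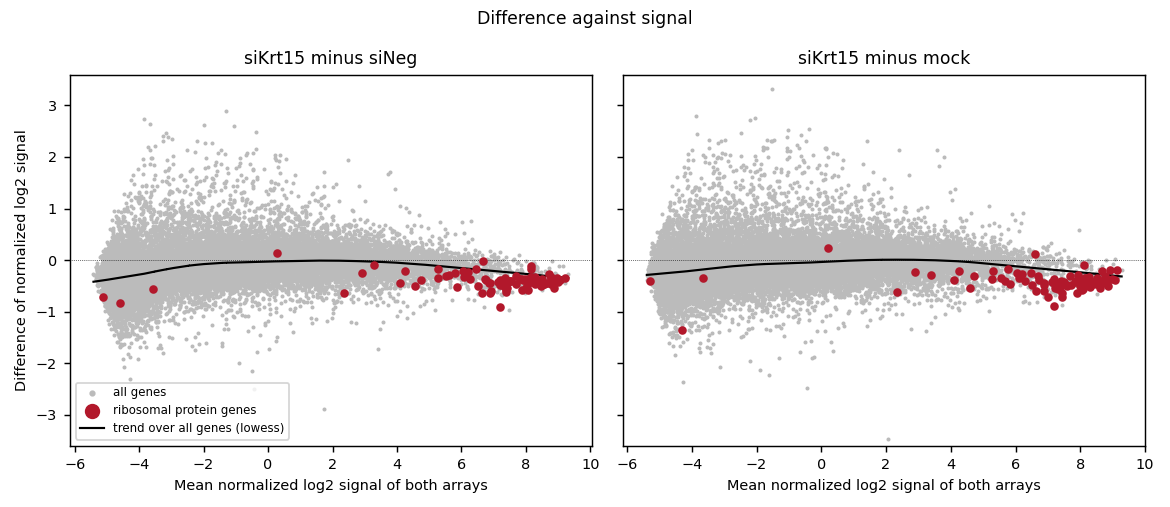
Difference of normalized log2 signal against the mean normalized log2 signal of both arrays, for all genes (grey) and ribosomal protein genes (red), with a lowess trend over all genes (black). The trend falls below 0 at high signal, and most members lie below the trend.

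How far the members were below 0 depended on the scaling, while their median stayed below that of all genes. A scaling that subtracts a constant from each array moves every gene alike, and left the member median 0.32 below that of all genes against siNeg. With spike-in scaling, on 9 control probes for E1A RNA, the member median was −0.08 against siNeg and −0.25 against mock, because that scaling raised the median of all genes by 0.33 and 0.16. It also put siNeg at −0.17 against mock. With the array median in place of the 75th percentile it was −0.19 and −0.21. The 75th percentile signal was 191 in mock, 180 in siNeg and 216 in siKrt15.

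Methods that change the shape of the distribution brought the members nearer to the other genes. Quantile normalization gave medians of −0.09 against siNeg and −0.13 against mock, and removing the signal trend gave −0.17 and −0.21. The distance to the median of all genes against siNeg was −0.24 with normexp, −0.11 with quantile normalization and −0.17 without the trend. On the processed signals with no scaling at all, siKrt15 was lowest for 71 of 83 members, where it was lowest for 23.6% of all genes, and with spike-in scaling for 66, where it was for 19.7%.

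**Figure D5:**
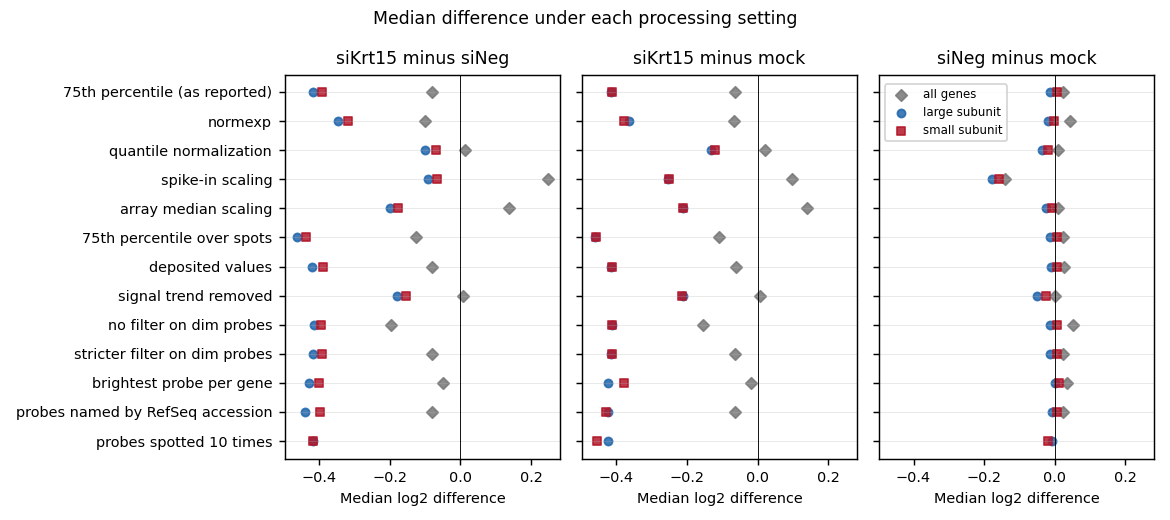
Median log2 difference of the large subunit genes (circles), the small subunit genes (squares) and all genes (diamonds) under each processing setting, for the 3 pairs of arrays. The subunits stay together in every row, and both lie to the left of all genes in each setting of the siKrt15 comparisons; for the probes spotted 10 times no all-gene value is drawn.

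In the siKrt15 comparisons most single members kept their sign over the 12 planned settings. Against siNeg 61 of 83 members were below 0 in all of them and Rpl7l1 was above 0 in all. Against mock 74 were below 0 in all, and Rpl7l1 and Rps27l above. Between siNeg and mock 34 were below 0 in all, and Rpl10l and Rps4l, both dim, above. The other members reached or crossed 0 in some setting, such as Rps26 against siNeg (from −0.32 to 0.08). The same counts over all genes are not given here, so these counts have no background to be set against. The subunits stayed together, with the large minus small difference between −0.045 and 0.030 over all settings of the 3 comparisons.

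Other mRNAs known for the pyrimidine tract also had medians below that of all genes. Of 24 elongation factor and other genes known for the same pyrimidine tract, 21 were below 0 against siNeg and 22 against mock (60.6% and 58.1% of all genes), with medians of −0.37 and −0.36 (−0.08 and −0.06 over all genes). At 1.5-fold 2 were lower in each comparison, near the 8.63% and 7.69% of all genes, and 1 was higher against mock, where 5.83% of all genes were. The initiation factors Eif4b, an activator of the helicase that opens mRNA leaders, and Eif3f were at −0.68 and −0.65 against siNeg, and the elongation factor Eef2 at −0.56. Eef2 read 18677 in mock, 16092 in siNeg and 13079 in siKrt15.

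The genes whose products make ribosomes had medians near 0. The 38 genes of rRNA transcription and ribosome assembly had medians of −0.0010 against siNeg and 0.04 against mock, with 19 and 16 below 0 and 0 at 1.5-fold either way. Heatr1 and Nhp2, which act in the processing and modification of pre-rRNA, were at −0.43 and −0.38 against siNeg, and the methylation complex protein Nop56 at 0.40. The 19 genes of mTORC1 and of the control of pyrimidine-tract mRNAs had medians of −0.16 and −0.18. At 1.5-fold 0 of them were lower or higher, beside the same shares of all genes. The mTORC1 inhibitor Tsc1 and the translation repressor Eif4ebp2 were both at −0.53 against siNeg and Akt1s1 at −0.48. Array signal measures the amount of mRNA and not its translation.

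Within the members, those with a pyrimidine run at the annotated start, such as Rps6 and Rpl27a shown above, had a similar median to those without. The 30 with a run of at least 5 bases had a median of −0.38 against siNeg and −0.39 against mock, and the 32 measured members without one −0.45 and −0.46. Rps3a1, the lowest bright member, and Rpl7l1, the highest, both lack a run there, and Rps27l has one of 5 bases.

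Cell division genes moved the other way on the same array. All 16 genes of a G2/M and mitosis list were at least 2-fold higher in siKrt15 against both controls, with medians of 1.54 and 1.73, where 1.7% and 2.18% of all genes were. The list was chosen with earlier results of these data known, so its count is a description and no independent result. The medians fell to 0.91 and 0.96 at the lowest of the planned settings, and 9 of the 16 against siNeg and 8 against mock were under 2-fold in at least 1 setting, though all stayed above 0 (lowest 0.32 and 0.42). Their part in the ribosomal protein difference was not tested. Markers of mesenchyme were measured for 6 of 7 genes, with signals of at most 174 in any group, and had a median of −0.55 against siNeg. Of these, 5 were below 0 and 3 at least 1.5-fold lower (Dcn −1.07, Pdgfra −0.94, Col3a1 −0.80), with Col1a1 higher by 0.85. Of all genes, 60.6% were below 0 and 8.63% at least 1.5-fold lower. Against mock 4 were below 0 and 2 at least 1.5-fold lower (58.1% and 7.69% of all genes), with Col3a1 at −0.38. Pdgfra, Col3a1 and Col1a1 read near background, at 4.85, 2.30 and 12.3 in mock. The part of the mesenchyme markers in the ribosomal protein difference was not tested either. Of 6 markers of blood and endothelium 4 were measured, at −0.46 to 0.14 against siNeg. Signal of the array as a whole also differed, with 69.0%, 69.2% and 67.3% of non-control spots well above background in mock, siNeg and siKrt15. With bulk RNA, fewer ribosomal protein mRNAs per cell and a larger share of other RNA per cell cannot be told apart.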

How the data were processed

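Cy3-labelled cRNA was hybridised to 1-colour Agilent arrays, per the labels' protocols, and scans were read with Agilent Feature Extraction 11.5.1.1, per the submitters' processing notes. The deposited scanner files give the background-subtracted processed signal as an intensity. The series table holds log2 values that the authors deposited, which match log2 processed signal minus a constant near the 75th percentile (r = 1.00 across probes on each array, medians −3.52, −3.51 and −3.72), with direction as in the scanner files and no centring of genes. Each array has 62976 spots, 0 saturated. Here, outlier spots were removed (69, 68 and 85) and log2 processed signal was averaged over the spots of each probe. The array's own 75th percentile over these probe values was then subtracted. A gene's value is the mean over its probes that were well above background and unsaturated on both arrays.

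Probes were named with the RefSeq table of GRCm38.p6, by accession (32989), symbol (10224) or synonym (520), and 12865 unmatched probes were left out. All 85 members matched. Background correction by normexp (offset 50) used limma 3.58.1 in R 4.3.3, and the rest, with quantile normalization, used Python 3.11.15. The calling procedure was tested on simulated data. Genes were counted at 1.5-fold, with 2-fold as an alternative. Genes are named by rule: Krt15, Rps6 and Rpl4, the members at the extremes of each comparison, stalk, 5S, ubiquitin-fusion and paralog genes, unmeasured members, and up to 3 genes with the largest siKrt15 to siNeg difference per other list. Rps19 and Rpl15 fall outside it and were chosen after their values or sequences were seen. Some genes that the rule names are not reported here. Members and lists were chosen with earlier results of these data known. With 1 array per group, their number limits the precision and no p-value was computed.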

Additional observations from a re-analysis of the deposited data

How the results depend on the processing

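The settings differed in background correction, scaling, filter, probe and naming; 12 were planned, and the probes spotted 10 times were added after seeing the data. The member median kept its sign against siNeg and against mock in all of them. It moved by over 0.061 (the spot SD of a single probe's difference, used as a yardstick and not the error of a median) against siNeg with normexp (−0.34), quantile normalization (−0.093), spike-in scaling (−0.076), array median scaling (−0.19) and the signal trend removed (−0.17), against mock with the last 4 (−0.13, −0.25, −0.21 and −0.21), and between siNeg and mock with spike-in scaling (−0.17). The number of members at least 1.5-fold lower changed more. Against siNeg it was 8 as reported, 0 at 2-fold, 1 with normexp, 1 after quantile normalization, 1 by the spike-ins, 2 with array median scaling, 15 with the 75th percentile taken over spots, 2 with the trend removed and 5 over the probes spotted 10 times. Against mock it was 9 as reported, 1 at 2-fold, 4 with normexp, 2 after quantile normalization, 2 by the spike-ins, 2 with array median scaling, 14 with the percentile over spots and 3 with the trend removed. Between siNeg and mock it was 1 after quantile normalization, 1 by the spike-ins and 1 with the trend removed. The cause of these changes was not tested, beyond the shift that each scaling adds to every gene. The shares of all genes at these settings are not given here, so the counts are no result about the members. The difference between the subunits ranged from −0.045 to 0.030, and the SD over members from 0.13 to 0.16 against siNeg, 0.14 to 0.20 against mock and 0.05 to 0.11 between the controls. No paired analysis was possible because each group has 1 array and the labels carry no shared replicate numbers. Dim probes (Rpl37, Rpl10l, Rps4l) limit those genes to errors of 0.25 to 0.40.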

Other observations

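Rpl36al, a paralog of Rpl36a whose name falls outside the rule, was at −0.35 against siNeg, −0.34 against mock and 0.01 between the controls on 2 probes, with signals of 12841 in mock, 12171 in siNeg and 11460 in siKrt15.

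The 180 measured member probes fell into classes by the transcript they were designed on, and the classes also differed in brightness. The 143 probes designed on curated RefSeq mRNAs had a median signal of 51978 and a median difference of −0.42 against siNeg, and 140 of them lay below 0. The 18 probes listed with an Ensembl transcript had a median signal of 812 and a median difference of −0.19, and 12 lay below 0. Among these 18 the difference had a Pearson r of −0.59 with log signal. Against mock these medians were −0.42 and −0.21, with 17 of the 18 below 0, and between siNeg and mock −0.0046 and −0.02. Across the 180 probes the difference against siNeg had a Pearson r of −0.04 with the GC content of the probe and −0.26 with its log signal; probes of a gene share their target and are not independent.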
